A study of Mus musculus with 6 samples.

Results

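Granulocyte and monocyte fate transcription factors were followed from progenitors to mature neutrophils, monocytes and macrophages in CD45+ cells of the arthritic mouse joint. The list held 7 genes (Cebpa, Cebpb, Cebpd, Cebpe, Gfi1, Spi1 and Irf8) and was set by name, with no threshold on a measured value, although earlier results of these data were known. Of the 20394 genes counted, 6 members were present. Cebpd was not analysed here.

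The cells came from male C57BL/6 mice, young adults, with antigen-induced arthritis. Mice were immunized subcutaneously with 10 μg of methylated bovine serum albumin (mBSA) in complete Freund’s adjuvant, and 100 μg of mBSA was injected into the knee on day 21. From day 21 the mice received intraperitoneal PBS as vehicle (2 samples) or 300 μg of PEPITEM (4 samples), a peptide that B cells release in response to adiponectin. Arthritis was therefore induced in the same way in all 6 samples, and no sample of healthy joint was part of the series. Joints were dissected from the lower limbs and digested, CD45+ cells were sorted, and the 3′ ends of their transcripts were sequenced cell by cell, with each RNA molecule counted once by its unique molecular identifier (UMI).

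These factors act in sequence during blood cell formation. PU.1 (Spi1) and C/EBPα (Cebpa) set up the shared granulocyte and monocyte progenitor, in which IRF8 (Irf8) drives monocyte and dendritic cell fates, whereas GFI1 (Gfi1) represses monocyte genes and C/EBPε (Cebpe) runs terminal granulocyte differentiation. C/EBPβ (Cebpb) takes part in emergency granulopoiesis and in the inflammatory response of mature myeloid cells.

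The counts form 1 table of 32953 cells, in which the barcodes end in a library number from 1 to 6. No source used here tied these numbers to the 6 samples, so treatments were not compared, the table counted as 1 sample, and no test between conditions was made. Intervals below are exact 95% intervals for counting error alone (Poisson for levels, Clopper-Pearson for shares), and the spread between library numbers is given as their range. The libraries held 2919 to 9345 cells and medians of 9923 to 14001 UMIs per cell, and 138 cell barcodes occurred in more than 1 library. The level of a gene is its UMIs per 1000000 UMIs (CPM) summed over a set of cells, and levels were compared between cells within a gene, not between genes, since 3′ counting and annotation differ from gene to gene. In a pooled level, fewer transcripts per cell and fewer expressing cells cannot be told apart without the share of cells with a UMI, which is therefore given beside it.

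Cells were assigned by marker UMIs (gates), with no member used as a marker. A total of 23113 cells (70.1%) fell into 19 gates, 11 of them myeloid, and 9840 cells into none. The path led from stem and progenitor cells (352 cells; Meis1, Mecom, Angpt1, Cd34, Kit and Flt3) through promyelocytes (899; Elane, Mpo, Prtn3, Ctsg and Ms4a3) and cycling late neutrophil precursors (1180; Fcnb, Camp, Ngp and Ltf with Mki67 or Top2a) to immature (3584), intermediate (849) and mature neutrophils (3743), which were separated by successively lower Camp, Ngp and Ltf. On the monocyte path lay cycling monocyte precursors (906), classical (1731) and nonclassical monocytes (117), inflammatory macrophages (861; C1qa, C1qb and Apoe with Arg1, Spp1 or Cxcl9) and resident macrophages (952; C1qa, C1qb and Apoe with Lyve1, Cd163, Folr2 or Timd4). Promyelocytes and late precursors together made up 1.20% to 9.60% of the cells of a library. Such precursors reside in bone marrow, and whether marrow entered the digest of the limb joints was not tested.

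On the mouse genome (GRCm38, GENCODE vM21) the 6 measured members are spread over 5 chromosomes. Cebpa (ENSMUSG00000034957, chr7:35119293-35121928, plus strand) and Cebpb (ENSMUSG00000056501, chr2:167688915-167690418, plus) each consist of 1 exon, Cebpe (ENSMUSG00000052435, chr14:54710360-54712174, minus) of 2 exons and Spi1 (ENSMUSG00000002111, chr2:91082390-91115756, plus) of 5 exons. The longest transcripts of Gfi1 (ENSMUSG00000029275, chr5:107716657-107726036, minus) and Irf8 (ENSMUSG00000041515, chr8:120736358-120756694, plus) have 6 and 9 exons. Cebpb is overlapped on the opposite strand by Tmem189. Irf8 lies inside Gm20388, a long locus on the same strand, whose level moved between 195 and 652 CPM over the gates and was 268 CPM in late neutrophil precursors, where Irf8 stood at 1.33 CPM.

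Irf8 and Gfi1, a monocyte and a granulocyte factor, had opposite patterns in the promyelocytes described below, and the 200 bases before the annotated start of each are shown, 5′ to 3′ on the strand of the gene (RefSeq, GRCm38.p6, where a promoter entry existed for 4 of the 7 members). The Irf8 window lies at chr8:120736158-120736357 on the plus strand and the Gfi1 window at chr5:107725806-107726005 on the minus strand. The Gfi1 window precedes the RefSeq start, at 107725805, but lies inside the longer GENCODE gene, which reaches to 107726036. Capitals mark matches to 2 of 4 motifs searched on both strands, a GFI1-type AAATCA and the letters TTNCNNNAA. The latter are too widely spaced to be a C/EBP site, so C/EBP sites were not searched.
Irf8: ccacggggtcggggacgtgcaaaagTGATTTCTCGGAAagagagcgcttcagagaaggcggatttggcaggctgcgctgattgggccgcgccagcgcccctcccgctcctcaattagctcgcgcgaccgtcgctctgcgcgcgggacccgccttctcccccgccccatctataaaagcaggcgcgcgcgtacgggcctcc
Gfi1: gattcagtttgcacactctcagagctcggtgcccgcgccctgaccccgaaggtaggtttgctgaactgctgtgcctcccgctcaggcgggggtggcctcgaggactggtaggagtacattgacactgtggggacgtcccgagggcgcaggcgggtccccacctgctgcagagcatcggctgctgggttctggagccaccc
In the Irf8 window the GFI1-type letters lie on the minus strand from 175 to 170 bases before the start. The TTNCNNNAA letters, also on the minus strand, overlap them from 171 to 163 bases before it. None of the 4 motifs was found in the windows of Gfi1, Cebpa or Cebpb, and the PU.1-type GAGGAA and an IRF-ETS composite motif were found in none of the 4 windows. Of 32544 mouse promoter windows of the same length, 26.7% held the letters TTNCNNNAA, 19.1% the PU.1-type, 9.65% the GFI1-type and 1.85% the IRF-ETS-type, so these matches describe the letters only.

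Each member had its own course along the myeloid gates. Gfi1 peaked in promyelocytes, Cebpe in late neutrophil precursors, Cebpa in macrophages with a second, lower maximum in promyelocytes, and Irf8 in promyelocytes and cycling monocyte precursors. Spi1 was present throughout within a narrow range, and Cebpb was higher at each step of the neutrophil path, up to mature neutrophils.

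**Figure D1:**
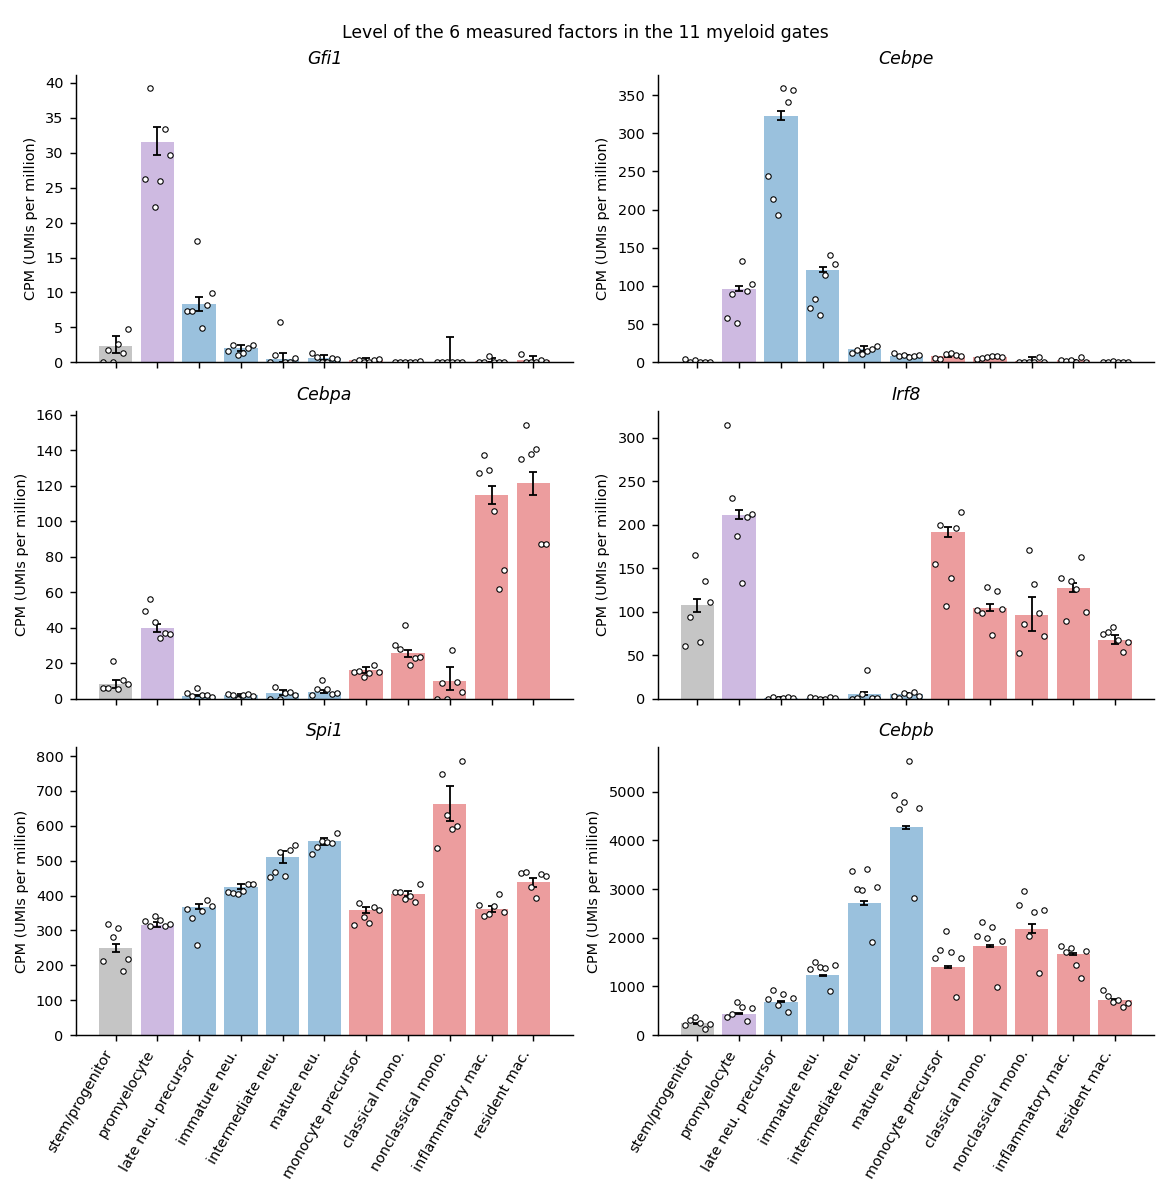
Level in CPM (linear axis from 0) of the 6 measured members in the 11 myeloid gates, with the shared gates in grey and purple, the neutrophil path in blue and the monocyte and macrophage path in red. Bars are pooled levels, error bars exact 95% Poisson intervals and points the 6 library numbers; Gfi1 reached 31.6 CPM in promyelocytes, Cebpe 323 CPM in late neutrophil precursors and Cebpb 4272 CPM in mature neutrophils.

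The first comparison asked which members mark the step from stem and progenitor cells to promyelocytes. Cebpe was at 0.846 CPM in progenitors, where 6 of 352 cells (1.70%) had a UMI, and at 96.4 CPM in promyelocytes, where 46.3% did. The levels differed 114-fold (95% interval 52.3 to 311). Gfi1 went from 2.40 to 31.6 CPM, 13.2-fold (8.19 to 22.7), and Cebpa from 8.18 to 39.9 CPM, 4.87-fold (3.74 to 6.46). In all 6 libraries these 3 members were higher in promyelocytes, and the library ranges did not overlap (Cebpa 34.3 to 56.4 against 5.23 to 21.1 CPM). Gfi1 in progenitors rested on 17 UMIs and was at 1.40 CPM without library 6, which made the difference 23.4-fold. With Leiden clusters in place of the gates, Cebpa was at 19.5 and 33.3 CPM, within 2-fold (1.70-fold). The cluster taken for progenitors held 588 cells, 327 of them from the progenitor gate, and was led by the hemoglobin genes Hbb-bs and Hba-a1. The gate left out cells rich in hemoglobin genes, so the 2 sets differ in their cells.

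Irf8, Cebpb and Spi1 were already present in progenitors. Irf8 stood at 107 CPM there and at 212 CPM in promyelocytes (1.97-fold), Cebpb at 241 and 440 CPM (1.82-fold) and Spi1 at 250 and 317 CPM (1.27-fold), and the library ranges of all 3 overlapped. Irf8 was found in 30.1% of progenitors (median depth 18995 UMIs) and in 64.7% of promyelocytes (33713 UMIs). With each cell thinned to 3000 UMIs these shares were 13.1% and 36.4%.

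By the 2-fold criterion 3 of 6 members were higher in promyelocytes and none was lower, whereas among 10479 genes at 5 CPM or more in either gate 9.99% were higher and 19.1% lower. The median gene had a log2 ratio of -0.31 here. Here and below this median was taken over all genes with a UMI in both sets of cells, without the 5 CPM filter. Relative to it Irf8 was 2.44-fold and Cebpb 2.26-fold higher, so both passed 2-fold on that scale. The median of the genes tested was -0.11, and relative to that Cebpb, with a log2 ratio of 0.87 by CPM, did not pass 2-fold. By CPM, Irf8 passed 2-fold without library 3, 5 or 6 (2.02-fold, 2.14-fold and 2.00-fold), and Cebpb without library 2 (2.14-fold). With clusters, where hemoglobin genes led the cluster taken for progenitors, Irf8 was 3.85-fold higher. Relative to the median gene, the share of higher genes among all changed genes went from 34.4% to 54.4%. Among 33 other regulators, 4 of 29 tested were higher and 11 lower. Gata1, Gfi1b and Gata2, regulators of erythroid, megakaryocyte and mast cell fates, were 52.4-fold, 26.0-fold and 22.8-fold lower in promyelocytes, Hlf, a stem cell factor, was 9.69-fold lower, and Id1 was 5.04-fold higher. Of 12 receptors and target genes 9 were higher and none lower, with the granule protease Elane and the peroxidase Mpo, which defined the gate, at 5851 and 4433 CPM.

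Promyelocytes were then divided by granule and monocyte genes that are not members, a division made after the data had been seen. The granulocyte side had at least 6 UMIs of Fcnb, Camp, Ngp and Ltf and at most 2 of F13a1, Ccr2, Fn1 and Vcan (146 cells), and the monocyte side the reverse (434 cells). A further 123 cells had at most 2 UMIs of either set, 72 cells had at least 6 of both, and the others lay between. Library 3 had 3 granulocyte-side cells and was left out of the library comparison, which leaves 5 libraries.

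Irf8 was nearly absent from the granulocyte side, with 4 UMIs in 3 of 146 cells (2.05%, interval 0.426 to 5.89), against 5220 UMIs in 414 of 434 cells (95.4%, 93.0 to 97.2) on the monocyte side. Median depths were close, at 34961 and 32657 UMIs. In libraries 1, 2, 4, 5 and 6 Irf8 was at 0, 1.47, 0, 0.643 and 0.966 CPM on the granulocyte side and at 491, 467, 211, 336 and 366 CPM on the monocyte side. Pooled levels of 0.765 and 361 CPM differed 472-fold (184 to 1733).

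Gfi1 and Cebpe had the opposite pattern. Gfi1 was at 84.9 CPM and found in 84.9% of granulocyte-side cells, against 7.33 CPM and 15.2% on the monocyte side, an 11.6-fold difference (9.35 to 14.5). In the same 5 libraries it was at 107, 102, 48.7, 94.6 and 76.8 CPM on the granulocyte side and at 4.60, 6.11, 0, 7.06 and 9.29 CPM on the monocyte side. Cebpe was at 317 CPM and in 97.9% of granulocyte-side cells, and at 12.3 CPM and in 21.0% of monocyte-side cells, 25.8-fold apart (22.1 to 30.2). Its libraries lay between 255 and 334 CPM on the first side and between 2.85 and 16.6 CPM on the second. For Irf8, Gfi1 and Cebpe the library ranges of the 2 sides did not overlap.

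Cebpa, Spi1 and Cebpb stayed within 2-fold between the sides. Cebpa was at 36.9 CPM and 37.1 CPM, a ratio of 1.01 (0.851 to 1.19), and its log2 ratio of 0.01 turned to -0.19 relative to the median gene. It was found in 63.7% of granulocyte-side and 59.9% of monocyte-side cells. Its level was 55.0 CPM in the cells with neither set. Spi1 stood at 363 and 329 CPM, a ratio of 0.906 (0.859 to 0.956). Cebpb was higher on the monocyte side in 5 of 5 libraries, at 540 against 270 CPM (2.00-fold, 1.89 to 2.12), but the libraries overlapped (337 to 873 against 115 to 338 CPM), and it passed 2-fold without library 3 or 5 (2.05-fold and 2.09-fold).

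**Figure D2:**
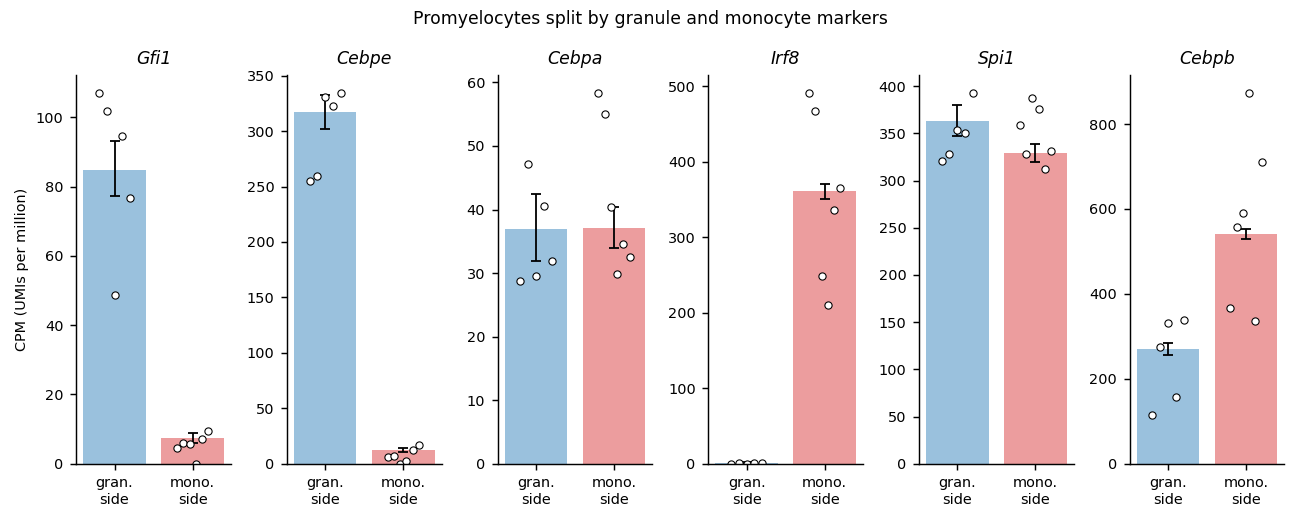
Level in CPM (linear axes from 0, 1 per gene) of each member in promyelocytes with granule genes (blue, 146 cells) and with monocyte genes (red, 434 cells). Bars are pooled levels with exact 95% Poisson intervals, and points are libraries with at least 5 cells on that side; Irf8 was at 0.765 and 361 CPM, Gfi1 at 84.9 and 7.33 CPM, and Cebpa at 36.9 and 37.1 CPM.

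One member was thus at least 2-fold higher on the monocyte side and 2 were lower, beside 16.7% and 6.38% of 9699 genes. The median gene had a log2 ratio of 0.20, and relative to it the share of higher genes among the changed ones went from 72.3% to 61.7%. Of the other regulators 15 of 26 tested were higher and 2 lower, with a median log2 ratio of 1.12 against 0.21 for all genes tested. Klf4, a monocyte factor, was at 234 CPM on the monocyte side and 1.34 CPM on the granulocyte side (175-fold), and Egr1 at 72.4 and 8.41 CPM. Of the receptors and targets 5 were higher and 6 lower. The receptor for M-CSF, Csf1r, was 51.1-fold higher and the IL-6 receptor gene Il6ra 9.93-fold higher on the monocyte side, while Elane and Mpo were 6.77-fold and 3.68-fold lower and Csf3r, the receptor for G-CSF, 2.34-fold lower. Camp and Ltf had served to divide the cells.

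The same division was seen cell by cell without it. Of 899 promyelocytes, 320 had a Gfi1 UMI and 80 of these had Irf8 (25.0%), compared with 86.7% of the promyelocytes without Gfi1. Cebpe was found in 416 cells, of which 33.7% had Irf8, against 91.5% of the rest. Gfi1 and Cebpe went together, with Cebpe in 81.2% of cells with Gfi1 and in 26.9% of those without. Cebpa did not sort with either side to this extent. Irf8 was in 60.8% of cells with Cebpa and 71.6% of those without, and Cebpe in 51.1% and 37.8%. Cells with a Gfi1 UMI were somewhat deeper (median 37133 against 32030 UMIs), so shares were also taken at 3000 UMIs in the 892 cells with that depth. There Irf8 was in 6.51% of cells with Gfi1 and 38.9% of those without, in 5.72% and 43.4% for Cebpe, and in 34.9% and 36.6% for Cebpa. The separation was not complete in whole cells of the monocyte side. There 53 of 66 cells with Gfi1 (80.3%) also had Irf8, against 98.1% of those without Gfi1. For Cebpe these were 76 of 91 cells (83.5%), against 98.5%. In the 72 cells with both granule and monocyte genes, 26 had both Cebpe and Irf8 UMIs. These cells had a median of 38687 UMIs, and whether some hold RNA of 2 cells was not tested.

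**Figure D3:**
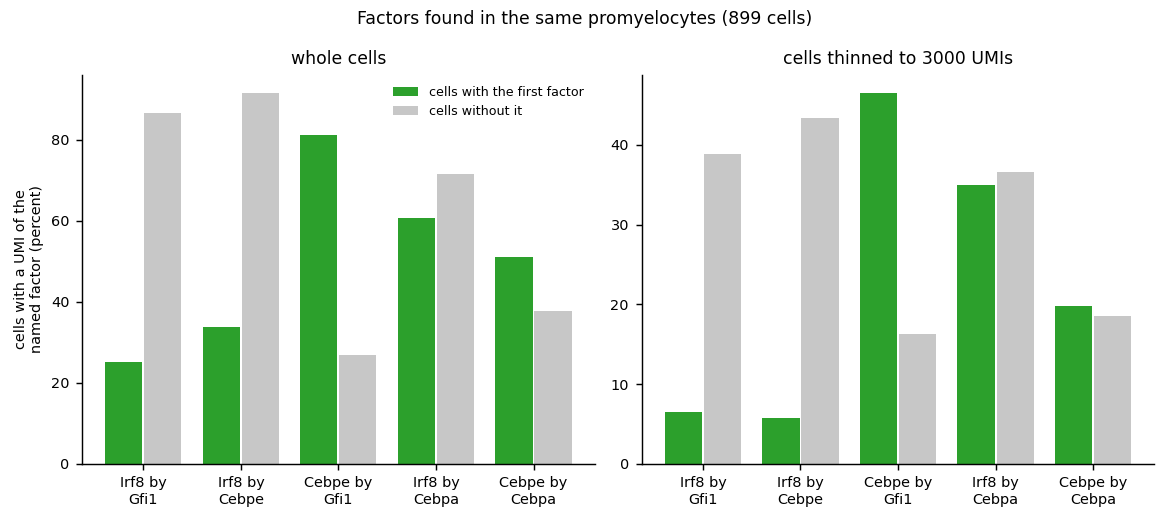
Percent of promyelocytes with a UMI of a member among cells with (green) and without (grey) a UMI of another, in whole cells (left) and in cells thinned to 3000 UMIs (right). Irf8 was in 25.0% of cells with Gfi1 and 86.7% of those without, while for Cebpa the thinned shares of Irf8 were 34.9% and 36.6%.

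Along the neutrophil path, Gfi1 and Cebpa were lower from an earlier gate on than Cebpe. From granulocyte-side promyelocytes to cycling late precursors Cebpa was 21.1-fold lower (15.7 to 28.5), at 36.9 and 1.75 CPM, and Gfi1 10.2-fold lower (8.77 to 11.8), at 84.9 and 8.34 CPM. Cebpe was at 317 and 323 CPM (ratio 1.02, 0.967 to 1.07) and was found in 98.0% of late precursors. Spi1 had a ratio of 1.01, and Cebpb was 2.53-fold higher (2.39 to 2.67). The differences of Cebpa, Gfi1 and Cebpb held in 5 of 5 libraries without overlap. Of the 5 members tested 1 was higher and 2 lower by 2-fold, and of 9034 genes 9.71% and 38.4%. Relative to the median gene, with a log2 ratio of -0.76, Cebpa and Gfi1 were 12.5-fold and 6.02-fold lower and Cebpb, Cebpe and Spi1 were 4.27-fold, 1.72-fold and 1.71-fold higher, and the share of higher genes among the changed went from 20.2% to 52.7%. Among the regulators 9 of 24 were higher and 6 lower, including Myb, a factor of cycling progenitors, at 221 and 33.6 CPM (6.56-fold lower).

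Cebpe was lower in the neutrophil gates without cycling genes. In libraries 1 to 6 it was at 244, 214, 194, 359, 341 and 357 CPM in late precursors, at 71.1, 82.5, 62.2, 115, 140 and 129 CPM in immature neutrophils and at 11.6, 7.90, 9.46, 6.37, 7.77 and 9.15 CPM in mature neutrophils. No range overlapped with the next. Late precursors and immature neutrophils differed 2.67-fold (2.58 to 2.76), and immature and mature neutrophils 14.6-fold (12.4 to 17.1). Intermediate neutrophils lay between the latter at 17.4 CPM. The share of cells with a UMI went from 98.0% to 53.5%, 10.0% and 3.47%, at median depths of 27966, 11235, 6821 and 4680 UMIs, and at 3000 UMIs it was 58.5%, 24.4%, 4.82% and 2.22%. In the T cell gate 1 of 1030 cells (0.0971%, median depth 8923 UMIs) held a Cebpe UMI. That gate left out cells rich in Camp, Ngp and Ltf or in S100a8 and S100a9. Of the Cebpe entries stored there, 4 of 5 were 0. Whether stored entries of 0 were counts taken out with the ambient RNA was not tested. This share therefore does not measure the background in neutrophils. The Leiden cluster of NK cells, made without these limits, was at 8.96 CPM with a Cebpe UMI in 3.45% of cells.

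Gfi1 was 4.00-fold lower in immature neutrophils than in late precursors (3.17 to 5.10), at 2.08 and 8.34 CPM, and in mature neutrophils it was near the limit of detection with 11 UMIs in 3743 cells. Thus 2 of the 4 members tested were lower in immature neutrophils and none was higher, beside 28.1% and 7.72% of 7827 genes. Cebpb was 1.81-fold higher there, and 2.35-fold relative to the median gene, whose log2 ratio was -0.38. On that scale the share of higher genes among the changed went from 21.5% to 42.5%. Irf8 was below 5 CPM in both gates. With Leiden clusters it was at 9.90 CPM in late precursors and 14.9-fold lower in immature neutrophils.

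Set against promyelocytes as a whole, immature neutrophils had less Cebpa (18.6-fold, 15.1 to 23.0), Gfi1 (15.2-fold, 12.3 to 18.9) and Irf8 (212-fold, 159 to 290) and more Cebpb (2.81-fold, 2.75 to 2.86), each in 6 of 6 libraries and without overlap. Irf8 was found in 1.00% of immature neutrophils, with 46 UMIs in 36 of 3584 cells, and the difference was 378-fold without library 5. Of the Irf8 entries stored in immature neutrophils, 59.6% had been emptied, against 1.36% in promyelocytes. The part of this step in the Irf8 difference was not tested. By the 2-fold criterion 1 member was higher and 3 lower, among 9750 genes 10.7% and 60.5%. S100a8 and S100a9, which encode abundant calcium-binding proteins of neutrophils, stood at 153132 and 169354 CPM in immature neutrophils and at 6428 and 4858 CPM in promyelocytes. The median gene had a log2 ratio of -1.58. Relative to it Cebpa, Gfi1 and Irf8 were 6.19-fold, 5.06-fold and 70.7-fold lower, Cebpe and Spi1 were 3.77-fold and 4.03-fold higher (1.26-fold and 1.34-fold by CPM), and the share of higher genes among the changed went from 15.1% to 48.8%. The Cebpe libraries overlapped, with 4 of 6 higher by CPM, and with Leiden clusters Cebpe was 1.58-fold lower in immature neutrophils (131 and 207 CPM). Of the regulators 2 of 26 were higher and 14 lower by CPM. Trib1, which targets C/EBPα for degradation, was 6.16-fold higher, and Klf4 and Myb were 26.2-fold and 12.2-fold lower.

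From immature to mature neutrophils Cebpb was 3.46-fold higher (3.43 to 3.50), and Cebpe was the member that was lower. Among 3 members tested 1 was higher and 1 lower, and among 6858 genes 17.9% and 12.3%. The median gene had a log2 ratio of 0.24, relative to which Cebpb was 2.94-fold higher and Cebpe 17.2-fold lower, and the share of higher genes among the changed went from 59.4% to 43.9%. Of the regulators 11 of 24 were higher and 1, Myb, was lower (10.3-fold). Egr1 and Junb, early response genes, were 7.05-fold and 4.45-fold higher. Csf3r, a receptor of mature neutrophils, was at 301 and 1458 CPM (4.84-fold) and was one of 5 of 10 receptors and targets that were higher. Irf8 was at 0.998 CPM in immature and 4.89 CPM in mature neutrophils, below the 5 CPM needed for a call, and higher in mature cells in 6 of 6 libraries, with overlap. The intermediate gate had 34 Irf8 UMIs in 5 of 849 cells (5.43 CPM), and without library 4 it had 0.746 CPM. The same gate had 23.0 CPM of the B cell gene Ebf1 and 40.4 CPM of the macrophage gene Cxcl9, against 1.82 and 11.9 CPM in mature neutrophils, and their part in the Irf8 level was not tested.

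On the monocyte path Irf8 remained present at every stage. Its level was 361 CPM in monocyte-side promyelocytes, 192 CPM in cycling monocyte precursors, 105 CPM in classical monocytes, 96.4 CPM in nonclassical monocytes, 128 CPM in inflammatory macrophages and 68.1 CPM in resident macrophages. Classical monocytes had 103, 99.2, 128, 72.9, 123 and 104 CPM in libraries 1 to 6, below the monocyte-side promyelocytes of the same library in 6 of 6 (3.45-fold, 3.29 to 3.61). In the order of levels, the ranges of neighbouring gates overlapped from promyelocytes down to resident macrophages, and a gap lay between resident macrophages (53.8 to 82.0 CPM) and the neutrophil gates. The late precursor and neutrophil gates left out cells with most of the monocyte genes or rich in C1qa, C1qb and Apoe. In the Leiden cluster of late precursors, made without these limits, Irf8 was at 9.90 CPM with a UMI in 7.96% of cells. The resident macrophage clusters had 67.3 CPM. From late precursors to mature neutrophils, 40.9% to 59.6% of the stored Irf8 entries of a gate had been emptied, against 1.56% in resident macrophages. The share of cells with a UMI was 84.8% in monocyte precursors, 60.3% in classical monocytes and 46.4% in resident macrophages, and 37.8%, 24.3% and 17.9% at 3000 UMIs.

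Between monocyte-side promyelocytes and classical monocytes, Gfi1 went from 106 UMIs in 66 cells to 1 UMI in 1 of 1731 cells, a 185-fold difference with a wide interval (32.5 to 7382). Cebpb was 3.40-fold higher in monocytes (3.31 to 3.48), at 1834 and 540 CPM. Among the 6 members 1 was higher and 2 lower, and among 9805 genes 13.4% and 22.0%. Relative to the median gene, at -0.26, Irf8 was 2.87-fold lower and Cebpb 4.08-fold higher, and the share of higher genes among the changed went from 37.8% to 51.5%. Maf, a macrophage factor, was 9.63-fold higher and Myb 48.4-fold lower in the monocytes, where 10 of 27 regulators were higher and 2 lower. With all promyelocytes as the reference, Cebpb was 4.17-fold higher in classical monocytes and Cebpe, Gfi1 and Irf8 were 13.8-fold, 798-fold (143 to 31553) and 2.02-fold lower, 1 member higher and 3 lower beside 15.3% and 23.2% of 9895 genes. The Irf8 difference was within 2-fold relative to the median gene (1.75-fold lower), which had a log2 ratio of -0.21, with Leiden clusters (1.31-fold lower) and without library 1, 2 or 4 (1.97-fold to 1.98-fold lower). Without library 6 classical monocytes had no Gfi1 UMI.

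Classical monocytes and immature neutrophils, the non-cycling cells that follow the precursors on each path, were compared directly. Irf8 was at 105 CPM in classical monocytes and 0.998 CPM in immature neutrophils, 105-fold higher (78.5 to 144, log2 6.71), and without library 5, which supplied 30 of the 46 UMIs in immature neutrophils, the log2 ratio was 7.45. Of the stored Irf8 entries, 59.6% had been emptied in immature and 43.0% in mature neutrophils, against 1.23% in classical monocytes. The counting intervals do not cover this step, and its part in the Irf8 ratios was not tested. Cebpa was at 25.5 and 2.15 CPM, 11.9-fold higher (9.59 to 14.8). Cebpe was at 7.01 and 121 CPM, 17.3-fold lower (14.9 to 20.2). Gfi1 was below 5 CPM in both gates, with 1 and 96 UMIs (52.6-fold lower, 9.22 to 2099). For these 4 members all 6 libraries had the same direction and the library ranges did not overlap.

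By CPM, Cebpb and Spi1 stayed within 2-fold between these cells. Cebpb was higher in classical monocytes in 6 of 6 libraries (1.49-fold, 1.47 to 1.51), with overlapping ranges, and Spi1 in 2 of 6. Cebpb had a log2 ratio of 0.57 (1834 and 1233 CPM), which turned to -0.78 relative to the median gene, and Spi1 one of -0.07 (406 and 426 CPM), or -1.42 relative to it, where it passed 2-fold. The median gene itself had a log2 ratio of 1.35, and S100a8 and S100a9 were at 275 and 175 CPM in classical monocytes. On that scale Irf8 was 41.1-fold and Cebpa 4.65-fold higher and Cebpe 44.1-fold lower. Of 5 members tested 2 were higher and 1 lower, and of 9005 genes 58.3% and 8.43%, with the share of higher genes among the changed at 87.4% and, relative to the median gene, 51.3%. Of the regulators 18 of 27 were higher and 1 lower, among them Klf4 (71.4-fold higher) and Maf (40.6-fold higher), and of the receptors and targets 5 of 11 were higher and 4 lower, with Csf1r 25.1-fold higher and Csf3r 2.29-fold lower. Against mature neutrophils, classical monocytes had 21.4 times the Irf8 level (17.5 to 26.6) and 6.54 times the Cebpa level (5.14 to 8.42), while Cebpb was 2.33-fold lower (2.30 to 2.36), each in 6 of 6 libraries. Relative to the median gene, at 1.19, these were 9.38-fold and 2.86-fold higher and 5.32-fold lower.

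Among the myeloid gates, Cebpa had its highest levels in macrophages. In libraries 1 to 6 it was at 30.1, 28.0, 41.3, 18.7, 22.8 and 23.5 CPM in classical monocytes, at 127, 138, 129, 106, 61.9 and 72.2 CPM in inflammatory macrophages and at 135, 154, 138, 141, 87.2 and 86.9 CPM in resident macrophages. Every macrophage value lay above every monocyte value. The pooled levels of 115 and 121 CPM were 4.49-fold (4.11 to 4.92) and 4.76-fold (4.33 to 5.23) that of classical monocytes, and the 2 macrophage gates overlapped with each other. Cebpa was found in 67.1% of inflammatory and 60.6% of resident macrophages (27.1% and 27.6% at 3000 UMIs), in 23.5% of classical monocytes (6.85%) and in 0 of 232 NK cells, where 3 cells, the limit used here for a count of 0, would be 1.29% with a UMI (the exact interval reached 1.58%). In the Leiden cluster of NK cells, made without the limits of the gate, Cebpa was at 8.96 CPM with a UMI in 3.98% of cells. The count of 0 was therefore seen with the gate only. The lowest 2 libraries in both macrophage gates were 5 and 6. In nonclassical monocytes Cebpa was at 9.74 CPM from 10 UMIs, and at 5.92 CPM without library 4.

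Other members were flat or lower in macrophages. Cebpe was 2.53-fold lower in inflammatory macrophages than in classical monocytes (1.81 to 3.59), in 6 of 6 libraries with overlap, and 1 of 5 members was higher and 1 lower, beside 9.67% and 6.05% of 9177 genes. Both Cebpe levels, 2.77 and 7.01 CPM, were below the 8.96 CPM of the NK cell cluster, and the background in these gates was not measured. In resident macrophages Cebpb was 2.54-fold lower (2.48 to 2.60), at 723 CPM, and Cebpe 20.1-fold lower (7.71 to 74.5) from 4 UMIs, so that 1 member was higher and 2 were lower, beside 21.8% and 11.5% of 9836 genes. Both calls were lost with Leiden clusters, where Cebpb was 1.33-fold lower (1212 and 1618 CPM) and Cebpe 1.27-fold lower (7.74 and 9.80 CPM), and without library 3 Cebpe was 34.6-fold lower. Of the stored Cebpe entries, 73.3% were 0 in resident macrophages, against 11.6% in classical monocytes. Spi1 had a log2 ratio of 0.11 in this comparison, which turned to -0.16 relative to the median gene at 0.26, and the share of higher genes among the changed went from 65.4% to 52.4%. Relative to the median gene Cebpa was 3.96-fold higher and Cebpb 3.05-fold lower in resident macrophages. Maf was 5.08-fold higher in inflammatory and 14.3-fold higher in resident macrophages. Among the regulators 5 of 26 were higher and none lower in the former, and 9 of 26 higher and 3 lower in the latter. Csf1r reached 1049 CPM in resident macrophages.

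Spi1 had the narrowest span of the members. Its pooled level lay between 250 CPM in progenitors and 662 CPM in nonclassical monocytes, and it was found in 85.2% to 99.5% of the cells of every myeloid gate. In mature neutrophils it was at 521, 539, 557, 554, 550 and 579 CPM in libraries 1 to 6, and in immature neutrophils at 410, 407, 405, 413, 434 and 435 CPM, without overlap (1.30-fold, 1.27 to 1.34). Neighbours in its order of levels overlapped over the libraries throughout. The B cell and plasmacytoid dendritic gates had 96.1 and 89.8 CPM, and Spi1 was nearly absent from the T cell gate (6.63 CPM, 3.50% of cells) and the NK cell gate (1.72 CPM, 1.72%). In the T and NK cell gates 30.8% and 60% of the stored Spi1 entries had been emptied. With Leiden clusters Spi1 was at 46.5 CPM in T cells and at 99.1 CPM in NK cells, where 15.1% of cells had a UMI. The T cell clusters differed. Spi1 was at 6.86 CPM (3.56% of cells) in the 618 cells led by Skap1 and Trbc2. It was at 87.8 CPM (15.9%) in the 574 cells led by Icos and Tnfrsf4. The near absence was therefore seen with the gate only in NK cells, and in T cells also in 1 cluster.

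Cebpb was at 241 CPM in progenitors, 440 in promyelocytes, 683 in late precursors, 1233 in immature, 2706 in intermediate and 4272 CPM in mature neutrophils. In mature neutrophils a UMI was found in 99.7% of cells, and in 99.4% at 3000 UMIs. The monocyte path started from 1399 CPM in cycling precursors and reached 1834 CPM in classical and 2186 CPM in nonclassical monocytes. B cells had 31.1 CPM, with a UMI in 10.2% of cells.

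Library number 5 stood apart for Cebpb. Its mature neutrophils had 2821 CPM against 4649 to 5634 CPM in the other libraries, its classical monocytes 997 against 1933 to 2333 CPM and its immature neutrophils 913 against 1350 to 1497 CPM. Library 5 was the lowest in 17 of the 19 gates, including each of the 11 myeloid gates, and over all of its cells Cebpb was at 807 CPM, against 1313 to 1506 CPM. Of 2095 genes at 20 CPM or more in every gate, 1 gene, Cebpb itself (0.0477%), had library 5 lowest in that many gates. Library 5 and the number of gates were taken from Cebpb, and genes with another library lowest were not counted. The mitochondrial gene mt-Nd3 followed with 16 gates, and the median gene had 2. The early response genes Fos, Jun and Junb of library 5 lay within the range of the other libraries in mature neutrophils, with Fos at 1725 CPM against 1423 to 1840 CPM. In classical monocytes Jun and Junb were within it and Fos, at 1196 CPM, was above it (772 to 1158 CPM). In resident macrophages Fos was the lowest in library 5, at 1825 against 2027 to 2557 CPM, and so was Klf2, at 679 against 802 to 1095 CPM. The overlapping gene Tmem189 was at 63.6 CPM in library 5 and at 63.9 to 106 CPM in the others. Of the Cebpb entries stored in the table, 2.21% were 0 in library 5 and 1.95% to 9.24% in the other libraries. The cells of this library had the lowest median depth, 9923 UMIs, and their treatment is not known. Without library 5 the Cebpb log2 ratio of classical monocytes over immature neutrophils was 0.55.

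**Figure D4:**
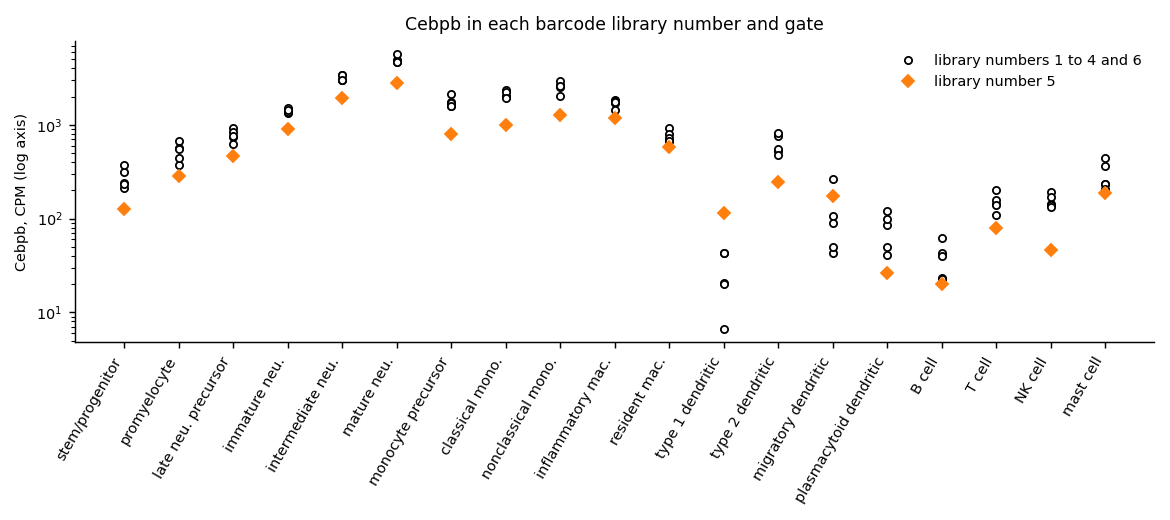
Cebpb level in CPM (log axis) in each of the 19 gates by library number, with library 5 as an orange diamond and the other 5 libraries as open circles. Library 5 was the lowest in 17 gates, the exceptions being type 1 and migratory dendritic cells, and had 2821 CPM in mature neutrophils against 4649 to 5634 CPM.

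Outside the myeloid path, Irf8 was higher than in any myeloid gate in 4 gates. Plasmacytoid dendritic cells had 1646 CPM (1141 to 2342 over libraries) with a UMI in 98.4% of cells, type 1 dendritic cells 871 CPM (744 to 1196), NK cells 799 CPM (765 to 847) and migratory dendritic cells 502 CPM (260 to 732). The type 2 dendritic gate, at 96.0 CPM, was close to classical monocytes, but unlike the other dendritic gates it set no limit on monocyte genes. With Leiden clusters the levels were 244 CPM in type 2 dendritic cells and 129 CPM in classical monocytes. Of the gated cells in that dendritic cluster, 55.3% were type 2 dendritic. B cells had 170 CPM, T cells 29.8 CPM, and mast cells 2 UMIs in 140 cells, an Irf8 share of 1.43% (median depth 3762 UMIs).

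Gfi1 was likewise found beyond promyelocytes. Mast cells had 39.6 CPM from 26 UMIs (26.2 CPM in the mast cell cluster, below the 35.9 CPM of the promyelocyte cluster), B cells 29.6 CPM (libraries at 37.2, 37.6, 20.8, 15.3, 28.8 and 19.8 CPM), T cells 14.8 CPM and NK cells 9.47 CPM, and the B cell range overlapped that of promyelocytes (22.3 to 39.2 CPM). In plasmacytoid dendritic cells it was at 5.37 CPM, and at 3.20 CPM without library 5. In contrast, Gfi1 had 4 or fewer UMIs in classical monocytes, nonclassical monocytes and both macrophage gates, and the 117 nonclassical monocytes had 0 UMIs, where 3 UMIs would be 2.92 CPM (the exact interval reached 3.59 CPM). Cebpe had at most 1.97 CPM in every gate outside the myeloid path, and Cebpa at most 30.8 CPM, in type 2 dendritic cells. These limits hold for the gates only. The Leiden cluster of 52 cells led by Il6 and the basophil genes Mcpt8 and Prss34 had Cebpa at 126 CPM (96.9 to 161) from 64 UMIs. Cebpe was at 8.96 CPM in the NK cell cluster, 16.8 CPM in the 130 cells led by Dach2 and Gata3 and 38.5 CPM in the 343 led by Jchain and Igha. It was at 0.305 CPM in the 574 cells led by Icos and Tnfrsf4.

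**Figure D5:**
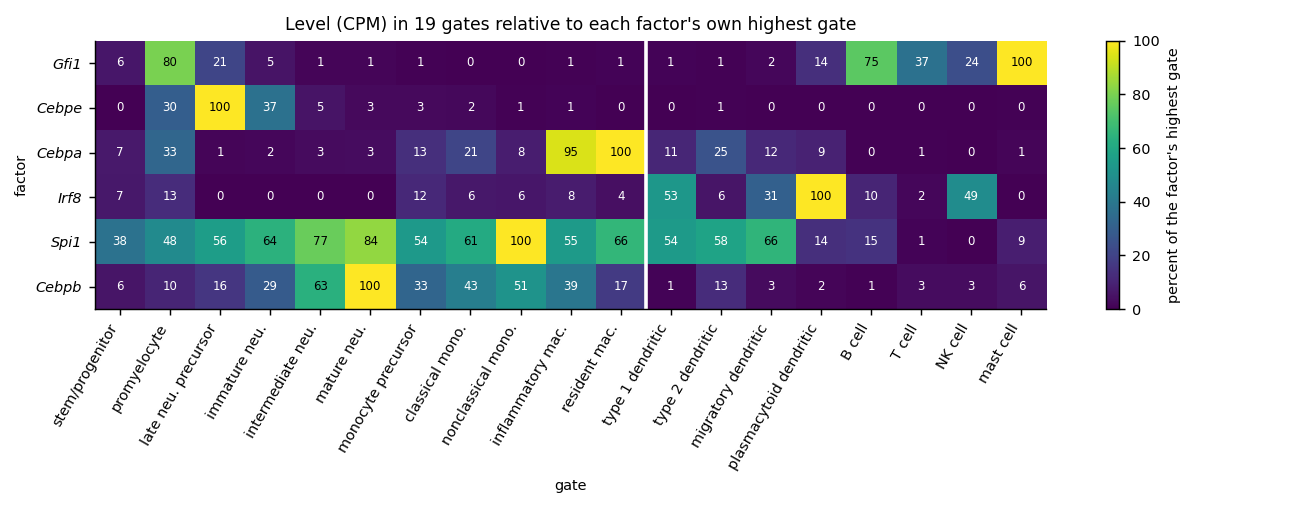
Level of each member in 19 gates as a percent of its own highest gate (by CPM, color scale from 0 to 100), with the 11 myeloid gates left of the white line. Irf8 peaked in plasmacytoid dendritic cells, Gfi1 in mast cells from 26 UMIs, an order that turned with Leiden clusters (26.2 CPM in mast cells, 35.9 CPM in promyelocytes), and the other members peaked in myeloid gates.

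As a description of likeness, levels over the 19 gates were compared on the log2(CPM + 1) scale among 9784 genes at 20 CPM or more in at least 1 gate. The gates share libraries and differ in depth, and no p-value applies. The gene closest to Gfi1 was Myb (Pearson r = 0.88), followed by Rbmx, Tmem263, Zfp507 and Tnk2. Cebpe was closest to Cldn15 (0.95), Abca13, Aff2, Arhgdib and the granule gene Camp, which is a gate marker. Irf8 was closest to Pddc1 (0.94), Mvb12a, Fancl, H2-M3 and Zc3h7a. Cebpa was closest to Guca1a (0.92), Asah1, Rab3il1, AI607873 and Cd68, Spi1 to Ogfrl1 (0.93), Tctex1d2, Csf2ra, Alox5ap and Nfam1, and Cebpb to Cd300lb (0.94), Hacd4, Clec4e, Rab20 and Dmxl2. Between members over the 11 myeloid gates, r was 0.82 for Cebpb and Spi1, 0.77 for Cebpa and Irf8 and 0.69 for Cebpe and Gfi1. It was lowest for Cebpb and Gfi1 (-0.63) and Cebpe and Irf8 (-0.59). Over all 19 gates the values of these pairs were, in the same order, 0.52, 0.33, 0.068, -0.54 and -0.61.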

How the data were processed

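CD45+ synovial cells of 6 samples (2 PBS, 4 PEPITEM) were profiled with the Chromium 3′ v3.1 chemistry. The authors aligned reads to mm10 with Cell Ranger (version 7 per the labels), removed ambient RNA with SoupX and doublets with DoubletFinder, and deposited 1 table of whole UMI counts per gene and cell, not scaled for depth. The annotation and the counting of introns are not given in the sources used here. No further doublet removal was done. Columns of other samples numbered 0.

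The members, lists and gates were chosen with earlier results of these data known. Most gates required at least 3 UMIs of at least 2 markers, and the promyelocyte and monocyte gates at least 3 markers. Late precursors required at least 2 UMIs of Fcnb and 2 of Mki67 and Top2a. Immature neutrophils required Camp, Ngp and Ltf together, and inflammatory macrophages at least 2 UMIs of Arg1, Spp1 and Cxcl9. Rates per 10000 UMIs of the cell were 20 for promyelocyte genes, 100 and 20 for Camp, Ngp and Ltf (immature, mature) and 200 for S100a8 and S100a9. They were 10 for monocyte genes and 5 for C1qa, C1qb and Apoe. The late precursor and neutrophil gates left out cells with most of the monocyte genes or at this rate of C1qa, C1qb and Apoe. These limits, the intermediate neutrophil gate and the division of promyelocytes were set after the data had been seen. A basophil gate with 3 cells was not reported, since sets under 50 cells were left out. Libraries entered a comparison with at least 5 cells in both sets.

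Levels are CPM with exact 95% Poisson intervals, ratios have exact conditional intervals, and shares have Clopper-Pearson intervals, which cover counting error only. Contrasts used genes at 5 CPM or more in either set and a 2-fold criterion, with 0 counts set to 0.5 for the call. Shares were also computed for cells thinned to 3000 UMIs, which leaves 62.1% (mast cells) to 100% of the cells of a gate, and 3373 of 3743 mature neutrophils. All members are named, with up to 5 regulators and receptors or targets of largest fold per contrast (Csf3r, Csf1r, Mpo and Elane also as pathway genes, chosen after their values were seen) and the 5 genes most alike. One regulator that this rule names is not reported here. Alternatives were stricter gates, Leiden clusters, other weights, thinning, other filters, median-ratio scaling and leaving out libraries. The contrasts of members with clusters and without each library were added after seeing the data. Promoter windows came from RefSeq. Python 3.11.15, numpy 2.4.6, pandas 2.3.3, scipy 1.17.1, scanpy 1.11.5 and matplotlib 3.10.9 were used, and scripts were tested on simulated data.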

Additional observations from a re-analysis of the deposited data

How the results depend on the processing

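No paired analysis was possible because the library numbers are not tied to samples and no result comes from a test. Under median-ratio scaling the Cebpb log2 ratio of classical monocytes over immature neutrophils turned from 0.57 to -0.78. Under the alternatives listed next none of these ratios changed sign. The main log2 ratio was 0.57 for Cebpb, -4.11 for Cebpe, -0.07 for Spi1 and 6.71 for Irf8. With Leiden clusters it was 0.40, -3.74 and 7.60 for Cebpb, Cebpe and Irf8, with the mean over cells 0.49 for Cebpb and 6.05 for Irf8, with the median over library numbers 0.53, -3.88, -0.026 and 7.29, and with thinned cells 0.51 for Cebpb. Leaving out a library gave 0.54 to 0.65 for Cebpb, -0.091 to -0.028 for Spi1 and 6.43 to 7.45 for Irf8, the highest without library 5. Gfi1 gave no value without library 6 or as a median, since its monocytes had 0 UMIs there.

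Counts of genes past 2-fold followed the filter, since fewer or more genes were tested. Without a filter and at 20 CPM they were 7796 and 1924 for promyelocytes over progenitors (main 3046), 13476 and 4605 for immature neutrophils over promyelocytes (6945), 7281 and 1244 for mature over immature neutrophils (2071), 8665 and 2516 for classical monocytes over promyelocytes (3808), 12453 and 3779 over immature neutrophils (6010), and 5246 and 864 for inflammatory macrophages over monocytes (1442). Clusters, median-ratio scaling and leaving out a library kept all 6 counts within 1.5 times.

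Of 77 levels of 5 CPM or more, stricter gates moved 0 and thinning 1 by over 1.5 times, and Leiden clusters 14 of 65. Among the latter were Cebpe (207 CPM in the promyelocyte cluster), Irf8 and Cebpa (43.9 and 19.5 CPM in the cluster taken for progenitors) and Cebpb (1212 CPM in the resident macrophage clusters). Hemoglobin genes led the cluster taken for progenitors. The clusters hold cells that the gates left out and lack some gated cells. The promyelocyte cluster held 608 of the 899 gated promyelocytes. Leiden clustering gave no intermediate neutrophil, type 1 or migratory dendritic cluster. Thinning moved 90 of 114 shares of cells with a UMI.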

Other observations

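Clusters made without the members split the B cells, and these clusters were picked after their values had been seen. Gfi1 was at 50.3 CPM (45.7 to 55.2, exact Poisson interval) in the cluster of 1418 cells led by Ms4a1, Agbl1 and Iglc2, with libraries at 21.9 to 57.2 CPM. It was at 38.4 CPM (34.9 to 42.3) in the 2085 cells led by Cecr2, Atp1b1 and Reln, with libraries at 11.1 to 48.2 CPM, and at 21.7 CPM (18.6 to 25.3) in the 614 cells led by Vpreb1 and Igll1, which encode the surrogate light chain of B cell precursors, with libraries at 11.8 to 31.5 CPM. The ranges of these 3 clusters over libraries overlapped. In the 837 B cells led by Bank1 and Ighd it was at 6.23 CPM (4.17 to 8.95) from 29 UMIs, with libraries at 3.16 to 12.4 CPM, below every library of the cluster led by Ms4a1.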
